A study of Mus musculus with 223 samples.

Results

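Neurexins, neuroligins and LAR-type receptor phosphatases are adhesion proteins of the synapse. Described here are 8 of their genes, namely 2 neurexins (Nrxn2 and Nrxn3), 3 neuroligins (Nlgn1, Nlgn2 and Nlgn3) and 3 LAR-type phosphatases (Ptprd, Ptprs and Ptprf), out of 43629 genes counted in single cortical interneurons (INs). The genes were listed by name with earlier results of these cells known, and Ptprd was selected on its measured level, which was high in the INs called type 3. Its levels by type are therefore a description. The cells expressed green fluorescent protein under regulatory sequences of Htr3a, the gene of a serotonin-gated channel (Htr3a-GFP+ INs), and were sorted from the whole cortex of transgenic mice of both sexes on a C57BL/6 background. No other allele or treatment is given, and the sequences that drive the reporter set which INs could be sampled. They comprised 82 cells at E18, taken as 1 group, and the 3 types assigned by the authors at each postnatal age, with 22, 31 and 13 cells of types 1, 2 and 3 at P2 and 34, 19 and 22 at P5.

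Neurexins and LAR-type phosphatases sit mainly in the presynaptic membrane, where each binds several families of partners across the cleft. Neuroligins are postsynaptic and bind neurexins. Nlgn2 is known mainly from inhibitory synapses and Nlgn1 from excitatory ones, while Nlgn3 occurs at both. In developing neurons the LAR-type phosphatases also act in axon growth and guidance.

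The level of a gene is given in RPM, the read pairs on its exons per 1000000 mapped read pairs, pooled over the cells of a group, with an exact 95% Poisson interval in parentheses. A cell was called positive above 10 RPM, and the share of positive cells is given with an exact 95% binomial interval. Brains of each age formed 1 pool, so there was no replicate animal and no test was made. The types were found by clustering these same cells on their transcripts, and a type compared with the rest is therefore a description for each gene. The Poisson intervals cover counting error only, since amplified copies of a molecule could not be told apart. The binomial intervals cover the draw of cells from 1 pool and not differences between animals.

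Mapped read pairs per cell ranged from 3707601 to 15840130, with a median of 9463033. The type 3 libraries stood apart. A median of 44.4% of their mapped read pairs lay on genes at P2 and 32.1% at P5, against 49.9% to 58.6% in the other groups, and type 3 cells at P2 had the fewest genes above 10 RPM (median 1437). At least 1 of 6 interneuron markers (Gad1, Gad2 and the genes Dlx1, Dlx2, Dlx5 and Dlx6) exceeded 10 RPM in 78 of 82 E18 cells, in 21 of 22, 29 of 31 and 12 of 13 cells of types 1 to 3 at P2 and in every cell at P5, although Dlx2 was listed at 0 in type 3 at P2. In 8 cells, of which 1 was from E18 and the others from P5, 2 or more markers of 1 non-neuronal cell type were above 10 RPM. At least 1 of 6 excitatory neuron markers was above 10 RPM in 16 cells at E18 and in at most 2 cells of each postnatal type. A number in the labels also divides the libraries into 4 sets (A to D here), with no word on what it stands for. Set A holds the P2 cells and no others, so that P2 and set A cannot be told apart.

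Ptprd encodes PTPδ, a receptor phosphatase that binds postsynaptic proteins of the Slitrk and IL1RAPL families, among others. The gene (ENSMUSG00000028399) spans 2271 kb at chr4:75941238-78211961 on the minus strand (GRCm38). Its transcripts were common in types 2 and 3 and sparse in type 1 at both postnatal ages.

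At E18, single cells ranged from 0 to 2654 RPM of Ptprd, with a median of 65.4, and 61 of 82 cells (74.4%, 63.6 to 83.4) were positive. In type 1 at P2 the lowest, median and highest cells held 0, 0.502 and 492.6 RPM, and 7 of 22 cells (31.8%, 13.9 to 54.9) were positive. The median type 1 cell thus carried almost no Ptprd transcript. In type 2 at P2 the corresponding values were 0.0992, 104.1 and 1749 RPM, with 23 of 31 cells (74.2%, 55.4 to 88.1) positive. In type 3 at P2 they were 0.172, 123.1 and 3897 RPM, with 9 of 13 cells (69.2%, 38.6 to 90.9) positive. The ranges of all types overlapped, and the shares of types 2 and 3 lay within each other's intervals.

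At P5 type 1 cells held from 0 to 302.6 RPM, with a median of 0.851, and 10 of 34 cells (29.4%, 15.1 to 47.5) were positive. Type 2 cells held from 0 to 2801 RPM, with a median of 66.3, and 15 of 19 cells (78.9%, 54.4 to 93.9) were positive. Type 3 cells held from 0.362 to 1042 RPM, with a median of 266.0, and 19 of 22 cells (86.4%, 65.1 to 97.1) were positive. The interval of type 1 lay below those of the other types, while those of types 2 and 3 overlapped. Since Ptprd was selected on its level in these cells, this is a description and not a test. Thinned to the depth of the shallowest cell, the shares at P5 were again 29.4%, 78.9% and 86.4%. Without the cells that had a pair of non-neuronal markers they were 28.1%, 86.7% and 90.5%.

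Pooled over cells, Ptprd reached 250.5 (249.4 to 251.6) RPM at E18. At P2 it was 60.2 (59.2 to 61.3) RPM in type 1, 304.8 (302.8 to 306.7) in type 2 and 744.5 (738.6 to 750.4) in type 3. At P5 it was 28.6 (28 to 29.1), 398.4 (395.6 to 401.3) and 449.7 (446.5 to 452.8) RPM. Single cells weighed on some of these levels far more than counting error. In type 1 at P2 the highest cell held 38.6% of the type's Ptprd read pairs, and the level without it was 38.8 RPM. The highest cell of type 3 at P2 held 57.9% of the type's Ptprd read pairs, and without it the level was 352.1 RPM. The highest cell of type 2 at P5 held 60.4%, and without it the level was 172.8 RPM. In type 3 at P5 the read pairs were spread more evenly. Its highest cell held 15.1%, and the level without that cell was 408.4 RPM.

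**Figure D1:**
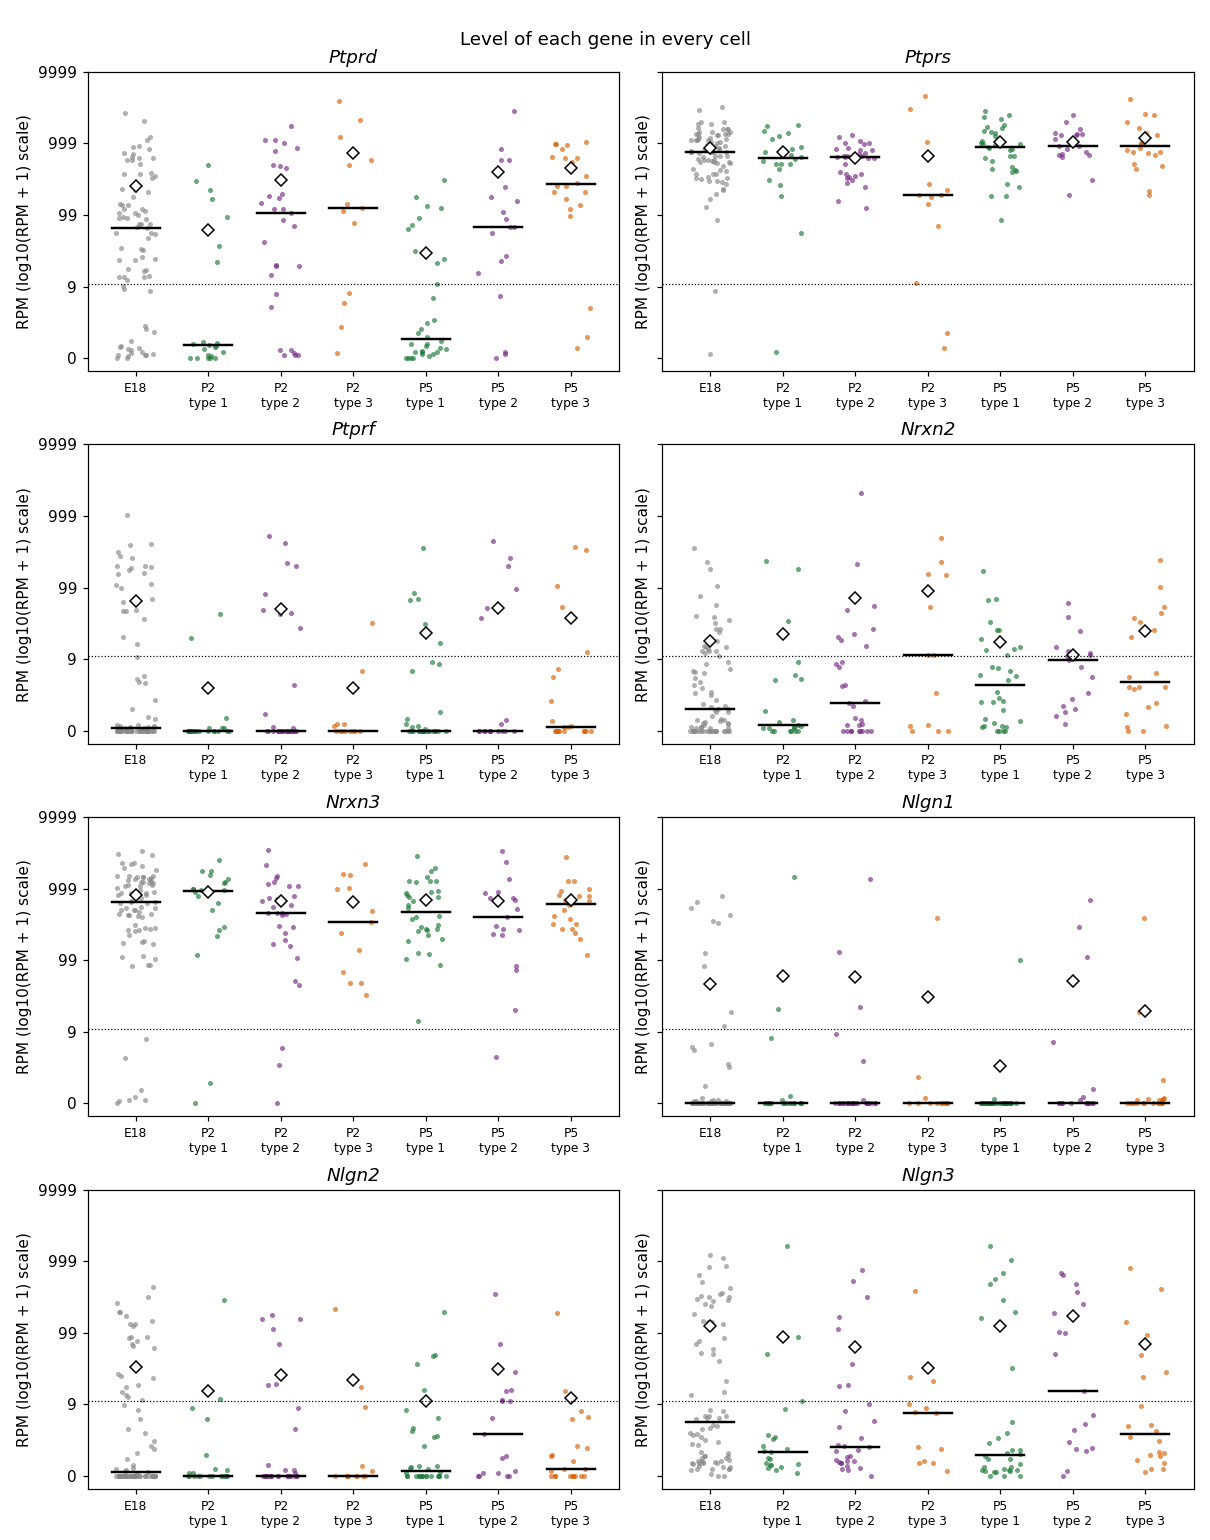
Level of each of the 8 genes in every cell, in RPM on a log10(RPM + 1) axis, by age and type. Each point is a cell, the black line is the median cell, the open diamond is the pooled level of the group and the dotted line marks 10 RPM. Most cells lie above the line for Ptprs and Nrxn3, the median Ptprd level of type 1 (0.502 and 0.851 RPM) lies far below those of types 2 and 3, and the pooled levels of the neuroligins and of Ptprf lie above their median cell.

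To compare types, the pooled RPM of a type and that of the remaining cells of the same age were each raised by 1 and their log2 ratio taken as the fold. A fold of at least 1 in either direction was counted, for genes that exceeded 10 RPM in over 5% of the cells compared. Over all such genes, the median fold in type 3 was -1.26 at P2 and -0.78 at P5. In types 1 and 2 it was -0.25 and 0.19 at P2 and 0.04 and 0.03 at P5, and against E18 it was -0.22 at P2 and -0.15 at P5. Folds in type 3 are best read against its shift. Ptprd had a log2 fold of -2.71 in type 1 at P2 and -3.84 at P5. In type 3 it had a fold of 1.88 at P2 and 1.51 at P5, which lay 3.14 and 2.29 above the median gene, and 92.2% and 91.5% of the genes tested had a fold at or below it. In type 2 the fold was 0.30 at P2 and 1.23 at P5.

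The lower Ptprd level in type 1 stayed past a fold of 1 in each of 11 alternative settings at P2, from -3.60 to -2.36, and of 14 at P5, from -6.53 to -2.67. At P2 the setting without cells that had a pair of non-neuronal markers removed no cell, so it could not differ. The higher level in type 3 kept its sign in all settings at both ages. Its fold at P2 was 0.80 without the single highest cell. At P5 it was 0.21 within library set B, which holds 2 type 3 cells and 2 type 2 cells, one of which is the high type 2 cell, 3.43 within set C and 1.85 within set D. In set B the pooled type 3 level, 391.9 RPM, lay above that of type 1 (13.1) and below that of type 2 (1859). Relative to read pairs on genes the type 3 fold was 2.09 at P2 and 2.26 at P5. No type 3 cell had an excitatory neuron marker above 10 RPM, 1 of them, at P5, had a pair of non-neuronal markers, and the fold at P5 was 1.44 without such cells. In type 2 at P2 the fold was 0.11 without the highest type 2 cell and 1.18 without the highest of the remaining cells. It was 1.80 there as a difference of mean log2(RPM + 1). In type 2 at P5 the fold was 0.03 without the highest cell, -0.54 within set C and -0.30 within set D. The medians of single type 3 cells at P5 were 366.5, 551.6 and 255.6 RPM in sets B, C and D, and those of type 1 cells were 0.585, 0.224 and 4.12 RPM.

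The 8 genes past a fold of 1 were counted beside the percentage of all tested genes past it in the same direction. In type 1 at P2, 0 of the 8 were higher (19.4% of 8400 genes tested) and 3 were lower, Ptprd, Ptprf and Nrxn2 (31.9%). In type 2 at P2, 1 was higher, Ptprf (28.1%), and 0 were lower (19.9%). In type 3 at P2, 1 was higher, Ptprd (16.0%), and 2 were lower, Ptprf and Nlgn3 (53.4%). In type 1 at P5, 0 were higher (23.6% of 9675 genes tested) and 2 were lower, Ptprd and Nlgn1 (23.7%). In type 2 at P5, 3 were higher, Ptprd, Nlgn1 and Nlgn2 (23.5%), and 0 were lower (21.8%). In type 3 at P5, 1 was higher, Ptprd (14.7%), and 1 was lower, Nlgn3 (45.7%). Counts of 0 to 3 of 8 genes are too small to be read apart from these percentages. The median fold of the 8 was -0.24, 0.22 and -0.15 in types 1 to 3 at P2 and -0.53, 0.79 and 0.08 at P5.

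The scaling moved the balance of calls over all genes. Higher genes made up 58.6% of the calls in type 2 at P2, and 46.3% with TMM and 41.7% with DESeq2 size factors. They made up 23% in type 3 at P2 and 38.4% with DESeq2 size factors. At P5 they made up 51.8% in type 2 and 24.3% in type 3, and 38.3% and 45.3% relative to read pairs on genes. Under these scalings Ptprd stayed past a fold of 1 in types 1 and 3 at both ages, while its fold in type 2 was 0.90 at P5 relative to read pairs on genes and -0.05 at P2 with TMM. Of the other genes, Nrxn2 passed a fold of 1 upwards in type 3 at both ages relative to read pairs on genes and with TMM, and at P2 with DESeq2 size factors. Nlgn3 no longer passed it downwards in type 3 with TMM or DESeq2 size factors, nor at P5 relative to read pairs on genes. In type 1 at P5 the lower genes were 4 in place of 2 under each of these scalings, with Nlgn2 and Ptprf added. Nrxn2 became a lower gene in type 2 at P5 relative to read pairs on genes and with TMM.

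**Figure D2:**
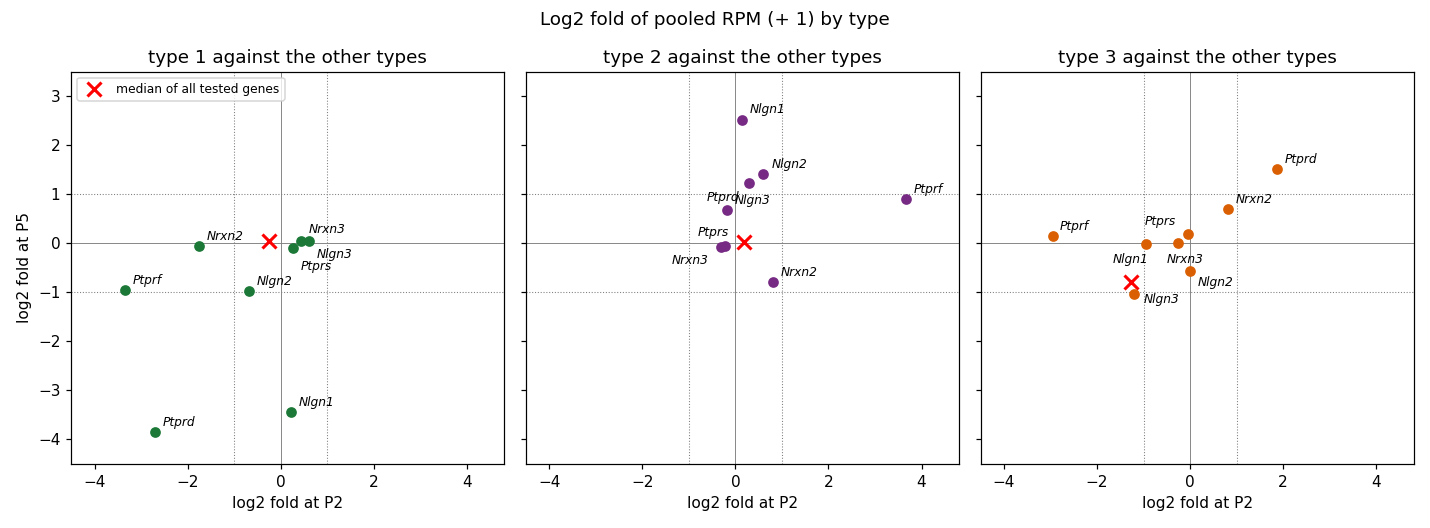
Log2 fold of each of the 8 genes in each type against the remaining cells of that age, at P2 (horizontal axis) and at P5 (vertical axis), for types 1, 2 and 3. Points are genes, the dotted lines mark a fold of 1 in either direction and the red cross is the median of all tested genes. Ptprd lies at -2.71 and -3.84 in type 1 and at 1.88 and 1.51 in type 3, and the only other gene past a fold of 1 in the same direction at both ages is Nlgn3 in type 3 (-1.20 and -1.03), which lies near the median of all genes.

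Ptprs, the gene of PTPσ, was the most evenly detected of the 8. Its protein binds heparan and chondroitin sulfate proteoglycans as well as postsynaptic adhesion proteins. The gene (ENSMUSG00000013236, chr17:56412426-56476483, minus strand) had at least 1 read pair in every cell of the series and was above 10 RPM in 97.8% of them. Sequences before a transcript start were taken from RefSeq (GRCm38.p6) for 5 of the 8 genes, and those of Ptprd, Nrxn2 and Nlgn3 were not analysed here. The 250 bases before the first start of Ptprs, and those before Ptprf, a sparsely detected gene of the same family, are shown 5′ to 3′ on the strand of the gene with CG dinucleotides in capitals, since CG-rich starts are common among broadly expressed genes. They lie at chr17:56476481-56476730 and chr4:118291398-118291647, both on the minus strand.
Ptprs: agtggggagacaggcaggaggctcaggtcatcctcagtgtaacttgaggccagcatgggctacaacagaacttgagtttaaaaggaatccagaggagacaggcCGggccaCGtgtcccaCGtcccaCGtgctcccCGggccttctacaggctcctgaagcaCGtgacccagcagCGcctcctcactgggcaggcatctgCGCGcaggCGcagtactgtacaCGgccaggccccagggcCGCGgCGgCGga
Ptprf: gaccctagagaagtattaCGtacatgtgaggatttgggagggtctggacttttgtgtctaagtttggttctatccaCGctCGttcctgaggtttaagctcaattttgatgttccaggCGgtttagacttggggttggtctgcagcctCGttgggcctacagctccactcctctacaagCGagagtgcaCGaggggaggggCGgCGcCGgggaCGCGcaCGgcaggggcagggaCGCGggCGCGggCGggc
The windows hold 15 and 18 CG dinucleotides. The median of 32851 such windows of the mouse is 6, and 27.3% and 21.7% of all windows hold at least as many. The letters TATAAA were on neither strand of either window, and 12.4% of all windows hold them. The broadly and the sparsely detected gene both start in CG-rich sequence.

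The level of Ptprs was 867.6 (865.5 to 869.6) RPM at E18, with single cells from 0.156 to 3198 RPM and a median of 754.4. The P2 level was 761.3 (757.6 to 764.9), 631.6 (628.8 to 634.4) and 661.5 (656.0 to 667.0) RPM in types 1, 2 and 3, with 21 of 22, 31 of 31 and 11 of 13 cells positive. The P5 level was 1046 (1043 to 1049.7), 1053 (1048 to 1058) and 1201 (1196 to 1206) RPM, and all 75 cells were positive. The pooled levels of the types of an age were close, and no type passed a fold of 1. Other measures set type 3 apart. Its fold at P2, -0.05, was -2.03 as a difference of mean log2(RPM + 1). Its fold at P5, 0.20, was 0.95 relative to read pairs on genes, a scale that moved the median gene from -0.78 to -0.09. Both RPM folds lay above the median gene of type 3, at -1.26 at P2 and -0.78 at P5. In type 3 at P2 the pooled level hid a wide spread. The lowest, median and highest of its cells held 0.375, 186.8 and 4584 RPM, and 3 cells held 84.5% of the read pairs, whereas the median cells of types 1 and 2 held 626.0 and 653.6 RPM. Within each type the pooled level was higher at P5 than at P2, by 0.46, 0.74 and 0.86 on the log2 scale, a difference that cannot be told apart from the library sets.

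Ptprf (ENSMUSG00000033295, chr4:118208213-118291405, minus strand) encodes LAR itself. It was above 10 RPM in 24.7% of all cells, and its median cell held no read pair of it in any postnatal group but type 3 at P5. At E18 its level was 63.1 (62.6 to 63.7) RPM, the highest cell held 1045 RPM and 25 of 82 cells (30.5%, 20.8 to 41.6) were positive. At P2 it was 3 (2.78 to 3.24) RPM in type 1, 49.5 (48.7 to 50.3) in type 2 and 2.99 (2.63 to 3.38) in type 3, with 2 of 22, 9 of 31 and 1 of 13 cells positive. Ptprf was thus mainly found in type 2 at this age, although the binomial intervals of the shares overlapped. Without the highest cell of each type the levels were 1.04, 34.4 and 0.637 RPM. The type 2 fold of 3.66 was 3.15 without the highest cell and 1.51 as a difference of mean log2(RPM + 1). At P5 it was 22.3 (21.8 to 22.8), 51.5 (50.4 to 52.5) and 36.2 (35.3 to 37.1) RPM, with 7 of 34, 6 of 19 and 5 of 22 cells positive. Without the highest cell of each type the P5 levels were 9.73, 28.3 and 21.2 RPM. The type 2 fold at P5 was 0.91, and it was 0.07 without the highest cell.

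Levels were compared between genes only as pooled RPM per kb of the longest annotated transcript. Ptprs led the LAR-type genes in every group, at 126.6 RPM per kb at E18, 92.1 to 111.1 at P2 and 152.6 to 175.2 at P5. Ptprd made up 15.8% of the summed level of the 3 genes at E18. At P2 it made up 5.18% in type 1, 23.8% in type 2 and 43.7% in type 3, and at P5 1.82%, 20.1% and 20.2%. The share of Ptprd was thus lowest in type 1 at both ages. Single cells set some of these shares. Without the cell highest in Ptprd, the share was 3.54%, 21.9% and 25.1% in types 1 to 3 at P2 and 1.46%, 9.98% and 18.5% at P5, still lowest in type 1. In single cells, Ptprd was above Ptprs per kb in 7 of 82 cells at E18, in 1 of 22, 6 of 31 and 5 of 13 of types 1 to 3 at P2 and in 0 of 34, 1 of 19 and 0 of 22 at P5. The 0 of 22 type 3 cells at P5 allow a share of up to 13.6%, taking 3 cells of the total as the limit for a count of 0. Cells positive for Ptprd were nearly always positive for Ptprs too, the exceptions being 2 cells at E18 and 1 type 3 cell at P2.

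**Figure D3:**
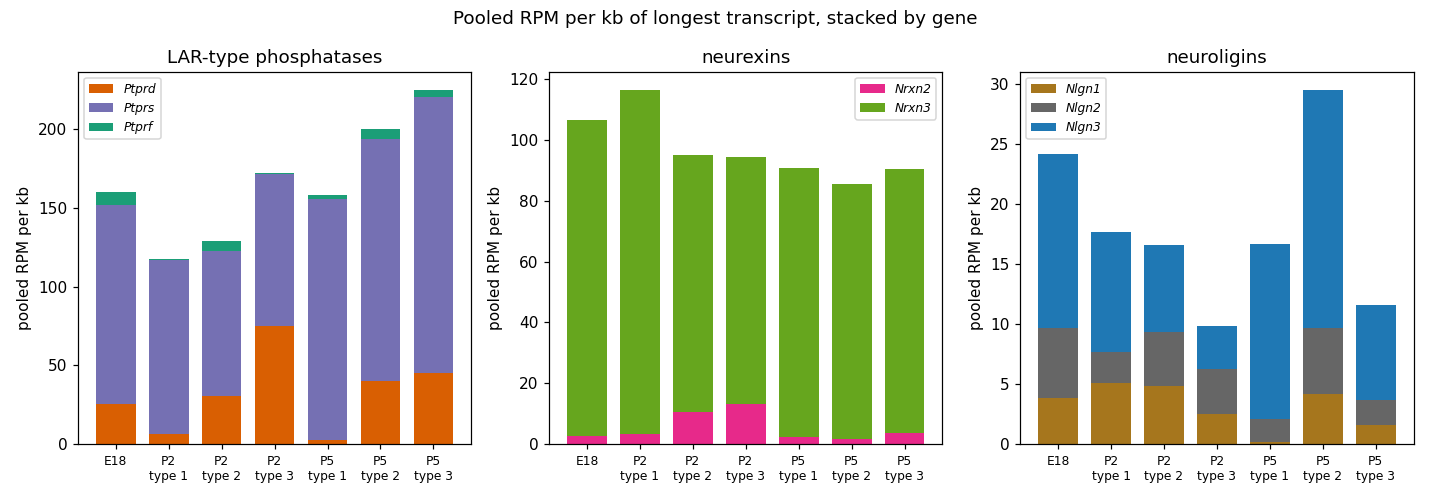
Pooled RPM per kb of the longest transcript in each group, stacked by gene, for each of the 3 families (vertical scales differ). The Ptprd segment is 6.09 and 2.89 RPM per kb in type 1 and 30.8 to 75.2 in types 2 and 3, and Nrxn3 makes up at least 86% of each neurexin bar.

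Nrxn3 encodes a presynaptic receptor for neuroligins, cerebellins and LRRTM proteins. Its gene (ENSMUSG00000066392) spans 1612 kb at chr12:88722876-90334935 on the plus strand. Neurexin genes make long and short proteins from an upstream and an internal start, and a count per gene pools them. RefSeq lists 3 starts of Nrxn3, which lie 71.6, 230.5 and 1089.6 kb inside the outermost annotated transcript start. The 250 bases before the innermost one (chr12:89812233-89812482, plus strand, CG dinucleotides in capitals) are shown as the internal start whose read pairs could not be separated from the rest.
Nrxn3: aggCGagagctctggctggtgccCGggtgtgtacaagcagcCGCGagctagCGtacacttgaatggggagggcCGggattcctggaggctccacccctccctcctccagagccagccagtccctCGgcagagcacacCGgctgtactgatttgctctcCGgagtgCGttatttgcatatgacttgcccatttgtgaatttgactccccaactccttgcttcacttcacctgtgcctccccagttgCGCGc
This window holds 12 CG dinucleotides, while those of the other starts hold 2 and 5, and 33.5% of all windows hold at least as many. TATAAA was on neither strand of the 3 windows.

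Nrxn3 was above 10 RPM in 93.7% of all cells. At E18 its level was 824.8 (822.8 to 826.8) RPM, with a median cell of 640.2 RPM, a highest cell of 3358 and 74 of 82 cells positive. In types 1 to 3 at P2 it was 898.1 (894.1 to 902.0), 668.3 (665.4 to 671.2) and 643.5 (638.0 to 648.9) RPM, with median cells of 923.1, 456.7 and 344.8 RPM. In the same types at P5 it was 701.1 (698.3 to 703.9), 664.6 (660.9 to 668.3) and 688.2 (684.3 to 692.1) RPM, with median cells of 475.3, 394.4 and 606.9 RPM. The pooled RPM levels of the groups were close together. With RPM as the scale, the fold furthest from 0 for a type was 0.44, in type 1 at P2. With DESeq2 size factors the type 2 fold at P2 was -0.78, and relative to read pairs on genes the type 3 fold at P5 was 0.75. Within library set B it was 1.43 in type 1 and -2.09 in the 2 cells of type 2 at P5. At P5, 74 of 75 cells were positive.

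Nrxn2 (ENSMUSG00000033768, chr19:6418731-6544169, plus strand), another presynaptic neurexin, was far lower and was above 10 RPM in 31.4% of all cells. Its level was 16.8 (16.5 to 17) RPM at E18, with 23 of 82 cells positive. At P2 it was 21.3 (20.7 to 21.9), 70.6 (69.7 to 71.6) and 88.4 (86.4 to 90.4) RPM in types 1 to 3, with 3 of 22, 9 of 31 and 7 of 13 cells positive. Levels at P5 were 16.2 (15.7 to 16.6), 10.3 (9.84 to 10.8) and 23.6 (22.9 to 24.3) RPM, with 11 of 34, 8 of 19 and 9 of 22 cells positive. The P2 levels rested on few cells. Without its highest cell the type 1 level at P2 was 11.4 RPM, and at P5 it was 9.78 RPM. In type 2 at P2, 1 cell held 2111 RPM and 78.3% of the read pairs, and the level without it was 15.7 RPM. In type 3 at P2, 1 cell at 496.9 RPM held 50.1%, and the level without it was 48.4 RPM. The type 1 fold at P2, -1.76, was -0.55 once the top cell among the other types was left out. Exons of Nrxn2 overlap those of Gm14964 and, over 682 bases, Slc22a12 on the opposite strand, those of Nrxn3 overlap Gm37980 over 439 bases and those of Nlgn1 overlap A830092H15Rik over 1229 bases, also on the opposite strand. The library kit does not mark strand, so read pairs there cannot be told apart. Exons of Nlgn3 share 3823 bases with Gm21986 on the same strand, which was listed at 0 in every cell, and how the counting treated read pairs on both genes is not given in the sources used here.

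Per kb, Nrxn3 made up between 86% (type 3 at P2) and 98.2% (type 2 at P5) of the summed level of the 2 neurexins. Cells with more Nrxn2 than Nrxn3 per kb were 7 of 82 at E18, 6 of 66 at P2 and 0 of 75 at P5, where 0 allows a share of up to 4% by the same limit of 3 cells. Nrxn3 and Ptprs were positive together in 72 of 82 cells at E18, 58 of 66 at P2 and 74 of 75 at P5. Most INs of each age thus held transcripts of a neurexin and of a LAR-type phosphatase.

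Nlgn3 was the highest neuroligin per kb in each group but type 3 at P2, where Nlgn2 was at 3.71 and Nlgn3 at 3.60 RPM per kb. The gene (ENSMUSG00000031302, X chromosome, 101299168 to 101325963, plus strand) was above 10 RPM in 33.2% of all cells, 7 cells held no read pair and the rest held it at a lower level. At E18 its level was 123.9 (123.1 to 124.7) RPM, the median cell was at 4.7 and the highest at 1236 RPM, and 33 of 82 cells (40.2%, 29.6 to 51.7) were positive. Its P2 level was 85.2 (84 to 86.4), 62 (61.1 to 62.9) and 30.8 (29.6 to 32) RPM in types 1 to 3, with 4 of 22, 8 of 31 and 3 of 13 cells positive. In type 1 at P2, 1 cell at 1651 RPM held 91.5% of the read pairs, and in type 3 the highest cell held 81%. Without them the levels were 7.61 and 6.25 RPM, and in type 2 at P2 40.6 RPM without its highest cell. Its P5 level was 125.1 (123.9 to 126.3), 169.9 (167.99 to 171.8) and 68.2 (67 to 69.4) RPM, with 9 of 34, 10 of 19 and 7 of 22 cells positive. The type 3 folds of -1.20 at P2 and -1.03 at P5 were near those of the median gene. Their direction was not stable, as the fold was 0.29 at P2 as a difference of mean log2(RPM + 1) and 0.23 at P5 within library set D. In type 3 at P5 the level was 40.3 RPM without its highest cell. Within types 2 and 3 the level was higher at P5 than at P2 by 1.44 and 1.12 on the log2 scale, which cannot be told apart from the library sets.

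Nlgn2 (ENSMUSG00000051790, chr11:69823122-69837784, minus strand) was above 10 RPM in 23.8% of all cells. Its level was 32.4 (32 to 32.8) RPM at E18, with 26 of 82 cells (31.7%, 21.9 to 42.9) positive. At P2 it was 14.6 (14.1 to 15.1), 25 (24.4 to 25.5) and 20.6 (19.7 to 21.6) RPM in types 1 to 3, with 3 of 22, 7 of 31 and 2 of 13 cells positive. In types 1 and 3 at P2 the highest cell held 86.8% and 93.1% of the read pairs, and without it the levels were 2.01 and 1.55 RPM. Levels at P5 were 10.3 (9.97 to 10.7), 30.3 (29.5 to 31.1) and 11.4 (10.9 to 11.9) RPM, with 5 of 34, 8 of 19 and 2 of 22 cells positive. Without the highest cell of each type they were 5.14, 9.55 and 1.71 RPM. Type 2 at P5 had the highest share, 42.1% (20.3 to 66.5). Its fold of 1.42 was -0.14 without the highest cell, which held 70.3% of the read pairs, and 1.44 without the cells that had a pair of non-neuronal markers, 4 of the 19.

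Nlgn1 (ENSMUSG00000063887, chr3:25426215-26332460, minus strand) was the rarest. It was above 10 RPM in 22 cells of the series, and the median cell of every group held no read pair of it. Positive cells were 10 of 82 at E18, 2 of 22, 3 of 31 and 1 of 13 in types 1 to 3 at P2. The P5 types had 1 of 34, 3 of 19 and 2 of 22. Where present it could be high, up to 1445 RPM in a type 1 cell at P2. Its level was 45.4 (45 to 45.9) RPM at E18, 59.7 (58.7 to 60.7), 57.2 (56.4 to 58.1) and 29.9 (28.7 to 31.1) in types 1 to 3 at P2, and 2.29 (2.14 to 2.46), 49.6 (48.6 to 50.7) and 18.7 (18.1 to 19.4) at P5. From 91.7% to 99.6% of the P2 read pairs of each type came from 1 cell. At P5 the highest cell held 99.9%, 67% and 96.1% in types 1 to 3, and the levels without it were 0.00296, 17.2 and 0.767 RPM. At P5 the folds were -3.44 in type 1 and 2.53 in type 2. They rest on shares of 2.94% (0.0744 to 15.3) and 15.8% (3.38 to 39.6) whose intervals overlap. Within library set C they were -0.01 and -0.02, where types 1 to 3 held 0.00883, 0 and 0.0479 RPM of Nlgn1. Set C thus held too little Nlgn1 to compare.

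At E18, 51 of 82 (62.2%, 50.8 to 72.7) cells held at least 1 of the 3 neuroligins above 10 RPM. The same was true of 27 of 66 (40.9%, 29 to 53.7) P2 cells and 36 of 75 (48%, 36.3 to 59.8) P5 cells. In type 2 at P5 this held for 15 of 19 (78.9%, 54.4 to 93.9) cells, against 13 of 34 (38.2%, 22.2 to 56.4) in type 1 and 8 of 22 (36.4%, 17.2 to 59.3) in type 3. Cells with 2 or more were fewer, 17 of 82 at E18, 6 of 66 at P2 and 10 of 75 at P5. Most neuroligin-positive cells thus passed 10 RPM for a single one. Cells also differed in how many genes of any kind exceeded 10 RPM. The median was 2738 genes for type 2 of P5, 2258 for type 1 and 2101.5 for type 3. By age it was 2495.5 (E18), 1912.5 (P2) and 2288 (P5). Of the 19 type 2 cells of P5, 4 had a pair of non-neuronal markers. What part either difference has in the neuroligin shares was not tested.

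The number of the 8 genes above 10 RPM in a cell ranged from 1 to 8. Cells with 4 or more made up 65.9% (54.6 to 76) at E18. At P2 they made up 13.6% (2.91 to 34.9) of type 1, 51.6% (33.1 to 69.8) of type 2 and 53.8% (25.1 to 80.8) of type 3. At P5 they made up 38.2% (22.2 to 56.4), 84.2% (60.4 to 96.6) and 72.7% (49.8 to 89.3). Type 1 was lowest at both ages, and Ptprd, the gene chosen for its pattern, is among the genes counted. Over all genes, the median number above 10 RPM in a cell was 2495.5 at E18. It was 1834, 2482 and 1437 in types 1 to 3 at P2 and 2258, 2738 and 2101.5 at P5. Whether the counts of the 8 genes follow these numbers was not tested. A single cell, of type 2 at P5, was positive for all 8 genes. It had 3654 genes above 10 RPM, against a median of 2738 for its type, and no pair of non-neuronal markers. Doublets were not called.

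**Figure D4:**
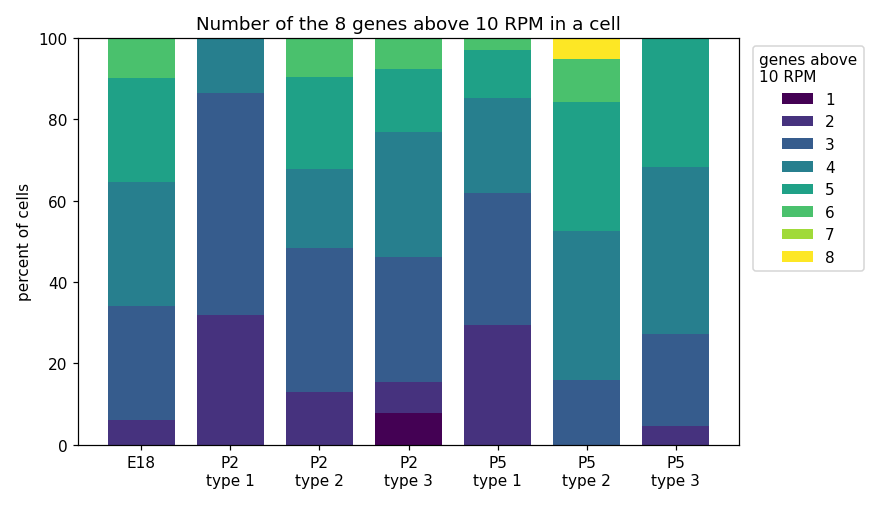
Percentage of the cells of each group with a given number of the 8 genes above 10 RPM, stacked from 0 to 100%. Cells with 4 or more genes made up 13.6% and 38.2% of type 1 at P2 and P5 and 51.6% to 84.2% of types 2 and 3.

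Between ages, over all cells, 2 genes passed a fold of 1 at P2 against E18 and 1 at P5. At P2, 1 was higher, Nrxn2 at 1.66 (12.7% of 10055 genes), and 1 was lower, Ptprf at -1.23 (23.1%). The Nrxn2 fold was 1.03 without the highest cell of each age and 0.32 as a difference of mean log2(RPM + 1). At P5, 0 were higher (13.5% of 10588 genes) and 1 was lower, Nlgn1 at -1.23 (20.1%). The Nlgn1 fold was -0.12 within library set C, where the E18 cells held 0.102 RPM of it, too little to compare. Ptprf was a further lower gene, at -1.38, without the cells that had a pair of non-neuronal markers. Ptprd had folds of 0.14 at P2 and -0.13 at P5 over all cells. Higher genes made up 35.4% of the calls at P2 and 40.2% at P5, and 45.8% and 51.3% relative to read pairs on genes. The E18 cells are a reference for both ages, and each type makes up a different share of the cells at P2 and P5.

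Binding partners were taken from 5 lists with 85 genes, chosen with earlier results of these data known. Neurexin partners include the LRRTM proteins, cerebellins, neurexophilins, latrophilins and the scaffold Cask. Of 26 listed, 16 could be tested at P2 and 18 at P5. In types 1, 2 and 3 at P2, 4, 4 and 3 were higher, where 19.4%, 28.1% and 16.0% of all tested genes were, and 7, 2 and 11 were lower (31.9%, 19.9% and 53.4% of all tested genes). At P5, 2, 8 and 3 were higher (23.6%, 23.5% and 14.7%) and 8, 2 and 7 lower (23.7%, 21.8% and 45.7%). These percentages of all tested genes apply to the counts of the other lists too, and counts from lists of 5 to 19 tested genes are given as a description. The median fold of the neurexin partners was -0.48, 0.16 and -2.24 in types 1 to 3 at P2 and -0.44, 0.65 and -0.30 at P5. Adgrl3, a latrophilin, was higher in type 3 and lower in type 1 at both ages, as Ptprd was. It was at 26, 37.3 and 194.7 RPM in types 1 to 3 at P2 and 17.6, 180.05 and 201.9 at P5, with folds of 2.54 and 1.43 in type 3 and -1.42 and -3.36 in type 1. In type 2 its folds were -0.93 and 1.17, where Ptprd had 0.30 and 1.23, and the type 2 level at P5 was 82.8 RPM without the highest cell. Without the highest type 1 cell, the type 1 levels were 13.2 RPM at P2 and 10.7 at P5, with folds of -2.35 and -4.03. The type 3 fold at P5 was 1.04 without the highest type 3 cell and 2.34 without the highest of the remaining cells. Cask had type 3 folds of -1.46 and -1.14, near the medians of all tested genes there (-1.26 and -0.78). The P2 fold was -3.84 without the highest type 3 cell. Cbln2, a secreted neurexin ligand, was higher in type 2, with folds of 2.38 and 2.82, and was above 10 RPM in 29% and 26.3% of type 2 cells. Its P2 fold was 6.40 once the highest of the remaining cells was left out.

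Neuroligin partners, mostly scaffold proteins of the postsynapse, numbered 20, of which 17 were tested at P2 and 19 at P5. In types 1 to 3 at P2, 2, 5 and 2 were higher (19.4%, 28.1% and 16.0% of all tested genes) and 7, 2 and 4 lower (31.9%, 19.9% and 53.4%). At P5, 2, 2 and 4 were higher (23.6%, 23.5% and 14.7%) and 6, 4 and 4 lower (23.7%, 21.8% and 45.7%). Gphn, the gene of the inhibitory scaffold gephyrin, was higher in type 2 by folds of 1.46 and 1.75, which were 0.36 and 1.03 without the highest type 2 cell. The P2 fold was 3.35 without the highest of the remaining cells. Magi2, a scaffold that binds neuroligins, was lower in type 2 by folds of -1.19 and -1.79 and higher in type 1 by 1.36 and 1.05. Its folds in type 1 were 0.93 and 0.79 without the highest type 1 cell. In type 2 at P2 the fold was -0.83 once the highest of the remaining cells was left out and -1.88 without the highest type 2 cell. Dlgap2, a scaffold of excitatory synapses, stood at 218.9 RPM at E18, with folds of -2.0 at P2 and -1.74 at P5 against it.

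Of 16 postsynaptic or proteoglycan ligands of the LAR-type phosphatases, 9 were tested at P2 and 11 at P5. In types 1 to 3 at P2, 1, 2 and 3 were higher (19.4%, 28.1% and 16.0% of all tested genes) and 6, 2 and 5 lower (31.9%, 19.9% and 53.4%). At P5, 2, 2 and 5 were higher (23.6%, 23.5% and 14.7%) and 7, 5 and 3 lower (23.7%, 21.8% and 45.7%). The same percentages apply to the counts of intracellular partners and of other receptor-type phosphatases below. Of 9 intracellular partners such as the liprins, 5 were tested at P2, where 1, 1 and 1 were higher and 1, 1 and 3 lower, and 7 at P5, where 0, 0 and 2 were higher and 2, 2 and 0 lower. Their median fold in type 3 was -2.97 at P2 and 0.33 at P5. No gene of these 2 lists that passed at both ages was above 10 RPM in 25% of the cells of the higher group, and none is named. Of 14 other receptor-type phosphatases, 10 were tested at P2, where 2, 5 and 2 were higher and 5, 3 and 6 lower. At P5 12 were tested, and 0, 4 and 6 were higher and 6, 4 and 1 lower. Their median fold in type 3 was -2.63 at P2 and 1.09 at P5, against -1.26 and -0.78 for all genes. Ptprz1, a proteoglycan-type phosphatase also known from glia, was higher in type 2 by folds of 1.5 and 1.37. Without the highest type 2 cell they were 1.15 and 0.73, and without the highest of the remaining cells 2.23 and 1.57. At P5 Ptprz1 was above 10 RPM in 78.9% of type 2 cells. At P5, 4 type 2 cells held 2 or more astrocyte or radial glia markers above 10 RPM, and their part in the Ptprz1 level was not tested.

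The genes whose pooled level over the 7 groups was most like that of each of the 8 were ranked by Pearson's r of log2(pooled RPM + 1) among 2927 genes that exceeded 10 RPM in 25% or more of all cells and whose level varied at least 2-fold over the groups. The 7 groups share library sets and depth, and many genes can reach a high r over so few points. For Ptprd these were Npas3 (r = 0.98), a neuronal transcription factor gene, Neb (r = 0.95), the gene of the muscle filament protein nebulin, and Chl1 (r = 0.92), the gene of an L1-type neural adhesion protein. Npas3 stood at 93.8 and 43.2 RPM in type 1 at P2 and P5 and at 380.8 and 319.4 in type 3. Chl1 stood at 178.7 and 93.5 RPM in type 1, at 848.4 and 961.0 in type 2 and at 608.8 and 585.2 in type 3. Low levels in type 1 follow from how these genes were chosen, since Ptprd is low there. The most alike gene was Celsr2 (r = 0.99) for Ptprf, Arpp21 (r = 0.96) for Ptprs, Baz2b (r = 0.94) for Nrxn3 and Unc13d (r = 0.94) for Nrxn2. For the neuroligins it was Npdc1 (r = 0.95) for Nlgn1, Mea1 (r = 0.95) for Nlgn2 and Gpr137b (r = 0.98) for Nlgn3.

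**Figure D5:**
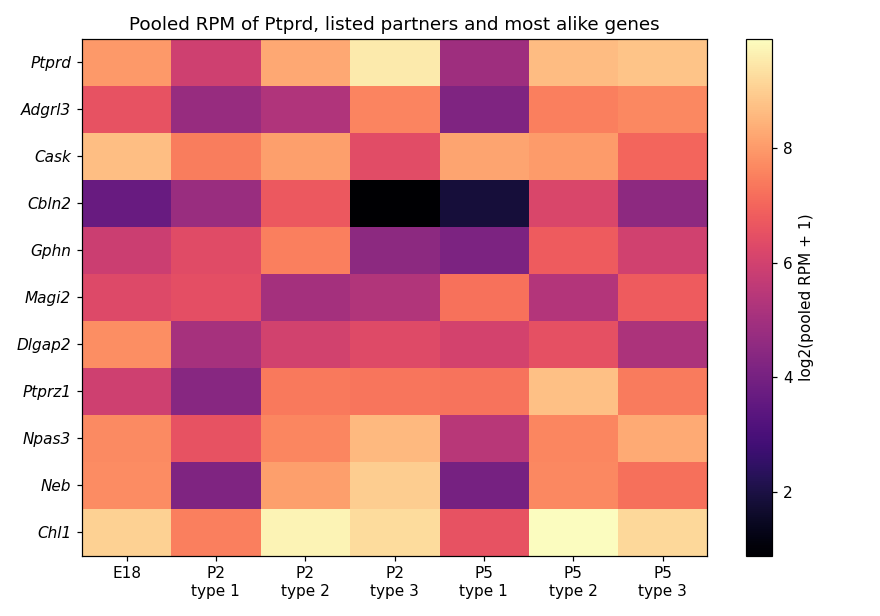
Pooled level, as log2(RPM + 1) by colour, of Ptprd, of the named binding partners and of the 3 genes most like Ptprd, in the 7 groups. Ptprd, Adgrl3, Npas3, Neb and Chl1 are each lowest in type 1 at both ages among the 3 types, where Npas3, Neb and Chl1 were chosen for their likeness to Ptprd and Adgrl3 for passing a fold of 1 at both ages.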

How the data were processed

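Single Htr3a-GFP+ cells were captured on the Fluidigm C1 system and amplified with the SMARTer Ultra Low kit, and Nextera XT libraries were sequenced as pairs of 50 bp reads. The authors aligned reads to GRCm38 with TopHat2 and deposited read pair counts per Ensembl gene made with HTSeq 0.6.1. Use of strand in counting is not given in the sources used here. Types are the subgroups in the sample labels.

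Counts were turned into RPM with the mapped read pairs given in the labels (3707601 to 15840130 per cell) and summed over cells. Of 43629 genes, 42548 were named with GENCODE M21 on the same build. Folds used a pseudocount of 1 RPM and kept genes that exceeded 10 RPM in over 5% of the cells compared. Each age was 1 pool of brains, so no test was made. The 8 genes and the lists were chosen with earlier results of these data known. Partner genes were named when past a fold of 1 in the same direction at both ages and exceeding 10 RPM in 25% or more of the higher group's cells, at most 4 a list. Alternatives were other scalings, pseudocounts, thresholds, thinned depth, single library sets and leaving out single cells. Scripts were tested on simulated data. R 4.3.3 with edgeR 4.0.16 (TMM) and DESeq2 1.42.0 (size factors) and Python 3.11.15 with scipy 1.17.1, numpy 2.4.6, pandas 2.3.3 and matplotlib 3.10.9 were used. Promoter windows came from RefSeq (GRCm38.p6).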

Additional observations from a re-analysis of the deposited data

How the results depend on the processing

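Of 688 folds under alternatives, 555 moved outside the counting interval, 7 turned direction where the fold had passed 1, and the rest stayed within it. That interval leaves out the spread between cells and is narrow, at 1.86 to 1.90 for Ptprd in type 3 at P2. The cause of single moves was not tested. The fold of Ptprd in type 3 was 1.88 at P2 and 1.51 at P5. It became 2.09 and 2.26 relative to read pairs on genes, 2.42 and 1.87 with TMM, 2.73 and 1.82 with DESeq2 size factors, and 2.22 and 3.96 as a difference of mean log2(RPM + 1). It was 1.73 and 1.70 from mean RPM over cells, 1.83 and 1.46 with a pseudocount of 10 RPM, and 1.73 and 1.70 after thinning. Without the highest cell of the type it was 0.80 and 1.37, and without the highest of the other types' cells 2.05 and 2.55. At P5 it was 1.44 without cells with a pair of non-neuronal markers and 0.21, 3.43 and 1.85 within library sets B, C and D. Direction turned for Nlgn3 in type 3, to 0.29 at P2 as a difference of mean log2(RPM + 1) and to 0.23 at P5 within set D. In type 2 at P5 it turned for Nlgn1 within set C (-0.021), for Nlgn2 without the highest cell (-0.14) and within set B (-4.52), and for Ptprd within sets C (-0.54) and D (-0.30). Set C held almost no Nlgn1 in any type at P5, and the 2 type 2 cells of set B held 0 RPM of Nlgn2. The alternatives for Ptprd in types 1 and 2, for the highest cell of each age, for the highest cells behind partner genes and the share of Ptprd and for shares and counts without cells with non-neuronal markers were chosen after seeing the data. Of 56 shares of positive cells, 37 moved outside their interval when 1 read pair was enough, 1 at 5 RPM, 3 at 20 RPM and 0 after thinning. Requiring 25% positive cells in the higher group, the count of lower genes fell from 2 to 0 in type 3 at P2, from 3 to 2 in type 1 at P2, from 2 to 1 in type 1 at P5 and from 1 to 0 at P5 against E18, and that of higher genes from 3 to 2 in type 2 at P5. No paired analysis was possible because each cell has its own number and no animal is named. The P5 types share library sets B, C and D, and folds within these sets stand in place of a block. Groups of 13 to 34 cells of 1 pool limit what the postnatal values can show.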

Other observations

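Meis2, a transcription factor gene, was above 10 RPM in 7 of the 19 type 2 cells at P5. Ptprd was positive in 4 of those 7 cells, with a median of 22 RPM, and in 11 of the 12 others, with a median of 133.96 RPM. The exact binomial intervals of these shares, 18.4% to 90.1% and 61.5% to 99.8%, overlap. At E18, 9 of 11 cells with Meis2 above 10 RPM and 52 of 71 others were positive for Ptprd. Ptprs was positive in every one of the 19 type 2 cells at P5, with median levels of 842.8 RPM in the cells with Meis2 and 1232 RPM in the others. This split was chosen with the data known and was not tested.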
